A study of Mus musculus with 16 samples.

Results

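The 33 genes described here mark B lymphocytes (14 genes), T lymphocytes (16 genes) and cytotoxic lymphocytes (3 genes), and were taken by symbol from RNA-seq tables of 4 mouse tissues, namely liver, brown fat and the epididymal and inguinal white fat pads. All 33 had a row in the epididymal, inguinal and liver tables, out of 22972, 22103 and 18566 genes, and 32 had one among the 19664 genes of brown fat, where Cd6 was not analysed. In the inguinal pad the lymphocyte genes were far higher in 1 of the 2 sunitinib libraries than in the other 3 libraries, and no member passed the test of sunitinib against vehicle. In epididymal fat Il7r and Cd37 fell, while the genes of the B and T cell antigen receptors did not pass. In brown fat 3 of 32 members and in liver 8 of 33 were abundant enough to test, and 0 passed.

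The series set sunitinib (Sutent), an oral inhibitor of vascular endothelial growth factor, platelet-derived growth factor and other receptor tyrosine kinases, against vehicle in 24-week-old C57BL/6 mice with no transgene or deletion named in the labels. Its design text gives 8 mice, 4 per treatment, from which 16 libraries were deposited, 2 per treatment and tissue. The labels do not tie a library to a mouse, so p-values measure the spread between these libraries, and they give neither dose, duration, diet nor sex.

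B lymphocytes recognise antigen through a surface immunoglobulin whose signal is passed on by the Cd79a and Cd79b chains, and T lymphocytes through a receptor coupled to the Cd3 and Cd247 chains, from which the kinases Lck and Zap70 and the adaptor Lat carry the signal inward. Adipose tissue holds resident lymphocytes among its stromal cells, and the inguinal pad of mice also surrounds a lymph node, an organ packed with B and T cells and served by specialised high endothelial vessels. In bulk tissue, more lymphocytes and more RNA per lymphocyte cannot be told apart.

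Values are regularized log2 expression, in which each gene is shrunk towards its own mean in that table, most strongly at low counts. Read totals cannot be recovered from them, so library depth is not known and values carry no counting interval. The tissue labels were met by their defining genes. Ucp1, the heat-producing uncoupling protein, lay between 16.46 and 16.93 in the 4 brown fat libraries, and Alb, the plasma protein albumin, between 20.13 and 20.33 in the 4 livers. Adipoq, the hormone adiponectin of fat cells, lay between 15.63 and 16.21 in the 8 white fat libraries. A gene entered the test where its mean was at least 3, which kept 33 members in inguinal fat, 26 in epididymal fat, 8 in liver and 3 in brown fat, so counts over the tested members in the last 3 tissues describe the more abundant ones. A member passed where its limma p, adjusted by Benjamini-Hochberg over all genes tested in that tissue, was under 0.05.

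In inguinal fat Cd79a, the signalling chain of the B cell receptor, measured 5.72 and 6.68 in vehicle replicates 1 and 2 and 7.81 and 10.97 in sunitinib replicates 1 and 2. Both sunitinib libraries lay above both vehicle libraries, but sunitinib replicate 1 stood 1.61 above the vehicle mean and sunitinib replicate 2 a further 3.16 above that. The sunitinib minus vehicle difference was 3.19 ± 1.145 (SE, n = 2 and 2), with a limma adjusted p of 0.3875. Its partner chain Cd79b gave 5.93 and 6.79 in vehicle and 7.75 and 10.90 in sunitinib, in the same order of libraries. The difference for Cd79b was 2.97 ± 1.13. Neither chain passed the test.

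Most B cell surface proteins followed that order of libraries. Ms4a1, which encodes CD20, read 5.23 and 6.19 in vehicle and 7.10 and 10.10 in sunitinib. Fcer2a, the low-affinity IgE receptor CD23 of follicular B cells, read 4.97 and 6.36 in vehicle and 7.36 and 10.14 in sunitinib. It had the lowest adjusted p of all members in this tissue, 0.385, at a difference of 3.08 ± 1.08. Cr2, the complement receptor CD21 of B cells and follicular dendritic cells, read 4.90 and 5.89 in vehicle and 6.91 and 9.92 in sunitinib. Cd22, an inhibitory coreceptor of the B cell receptor, read 6.17 and 6.55, then 7.80 and 11.03, the highest value any member reached. For these 4 genes the groups did not overlap. Cd37, a tetraspanin of mature B cells that other leukocytes also carry, gave 8.06 and 7.96 in vehicle and 8.19 and 10.78 in sunitinib, so its replicate 1 library under sunitinib barely exceeded the controls. Cd72, another inhibitory B cell receptor, had a similarly small first step, at 6.20 and 6.25 in vehicle and 6.59 and 8.98 in sunitinib.

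Blk, a Src-family kinase of B cells, had values of 4.68 and 4.86 in vehicle and 6.05 and 8.81 in sunitinib, a difference of 2.67 ± 0.96 (limma adjusted p = 0.390). The scaffold Bank1 (5.91, 6.03, 6.56 and 9.05 in vehicle 1, vehicle 2, sunitinib 1 and sunitinib 2) and the intracellular Fc receptor-like protein Fcrla (4.69, 5.03, 5.40 and 8.33) had smaller steps in sunitinib replicate 1. Among the transcription regulators, Pou2af1, the coactivator of octamer-binding factors in B cells, had 4.72 and 5.17 in vehicle and 6.39 and 9.80 in sunitinib. Spib, an Ets-family factor of B cells and plasmacytoid dendritic cells, had 4.76 and 5.68 in vehicle and 6.70 and 9.88 in sunitinib. Pax5, the factor that fixes B cell identity, had 4.30 and 4.73 in vehicle and 5.37 and 7.97 in sunitinib. In 13 of the 14 B cell genes the libraries stood in 1 order, vehicle 1, vehicle 2, sunitinib 1 and sunitinib 2 from low to high, Cd37 being the exception. The same order held for 8 of 16 T cell members and 0 of 3 cytotoxic members. The share of all genes in this order was not counted.

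**Figure D1:**
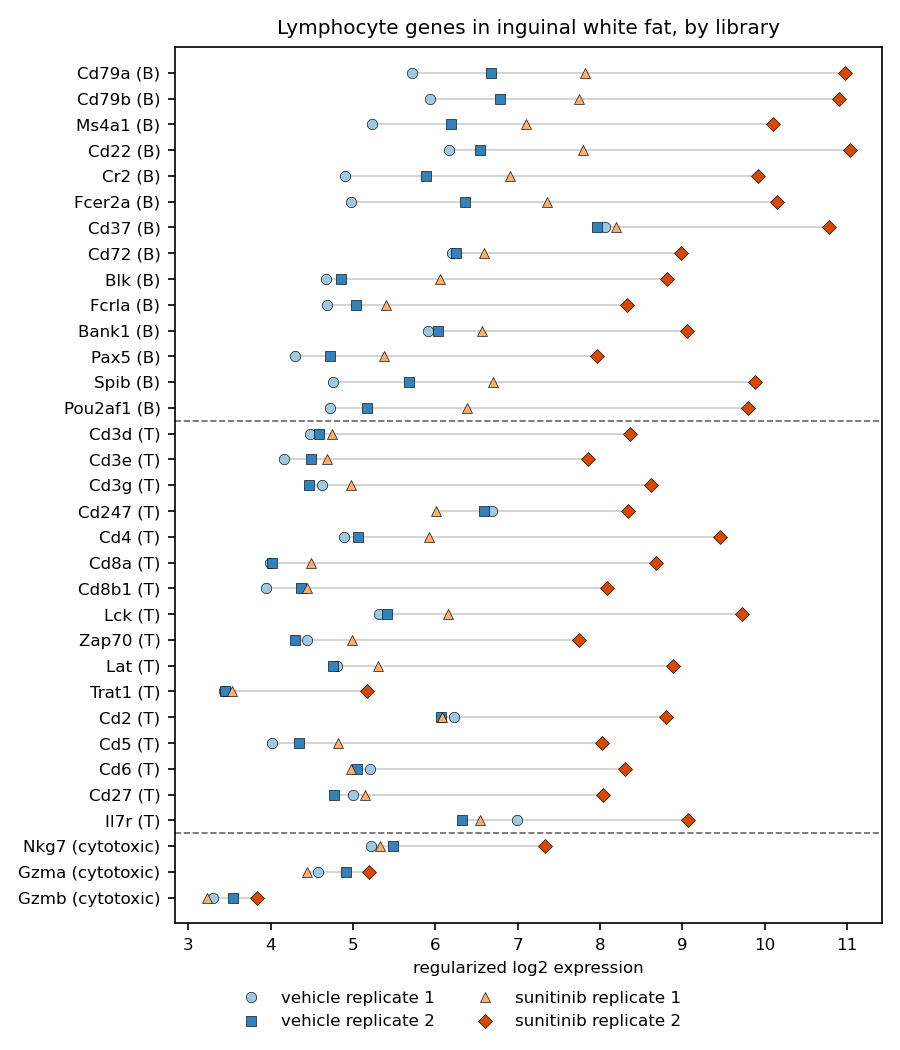
Regularized log2 expression (x axis) of the 33 lymphocyte genes (rows; B, T and cytotoxic genes separated by dashed lines) in the 4 inguinal white fat libraries, 1 symbol per library. Sunitinib replicate 2 is the rightmost symbol in all 33 rows, and sunitinib replicate 1 lies to the right of both vehicle libraries in 26 of them.

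The T cell genes separated sunitinib replicate 2 from the rest and the other 3 libraries little from each other. Cd3d, a chain of the T cell receptor complex, read 4.48 and 4.58 in vehicle, 4.74 in sunitinib replicate 1 and 8.36 in sunitinib replicate 2. Cd3e read 4.17, 4.49, 4.68 and 7.85 in the same order, and Cd3g 4.63, 4.46, 4.97 and 8.62. The first 3 values of each of these Cd3 chains span little beside the step to the last. Cd247, the zeta chain of the complex, gave 6.69 and 6.59 in vehicle and 6.01 and 8.34 in sunitinib, so its groups overlapped. Its difference was 0.54 ± 0.82. In the RefSeq annotation Cd247 overlaps the gene Pou2f1, whose values were 7.41 and 7.40 in vehicle and 7.57 and 8.17 in sunitinib, and whether counting used strand is not given in the sources used here.

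The coreceptors mark the helper and cytotoxic branches of T cells, and both branches were highest in sunitinib replicate 2. Cd4, the coreceptor of helper T cells, measured 4.89 and 5.06 in vehicle, 5.93 in sunitinib replicate 1 and 9.46 in sunitinib replicate 2, a difference of 2.71 ± 1.23. Cd8a, a coreceptor chain of cytotoxic T cells, measured 3.99 and 4.01 in vehicle, then 4.49 and 8.68. Cd8b1, its partner, measured 3.94 and 4.37 in vehicle, then 4.44 and 8.08. The step from sunitinib replicate 1 to replicate 2 was 4.18 for Cd8a, the second largest such step among the 14916 genes tested. Cd4 and Cd8a did not pass the test (limma adjusted p = 0.437 and 0.491).

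Among the T cell signalling genes, the kinase Lck had 5.32 and 5.41 in vehicle and 6.15 and 9.73 in sunitinib. Zap70, the kinase recruited to the phosphorylated receptor chains, had 4.44 and 4.30 in vehicle and 4.99 and 7.74 in sunitinib. The adaptor Lat had 4.80 and 4.76 in vehicle and 5.31 and 8.88 in sunitinib. In each of them both sunitinib libraries exceeded both controls. Trat1, a further adaptor of the receptor complex, ran lower at 3.44, 3.45, 3.53 and 5.17. Of the surface proteins, Cd27, a costimulatory receptor of the tumour necrosis factor receptor family, gave 4.995 and 4.77 in vehicle and 5.14 and 8.03 in sunitinib. Cd5, a negative regulator of receptor signalling, gave 4.01 and 4.35, then 4.81 and 8.02. The groups overlapped for Cd2, Cd6 and Il7r. Cd2, an adhesion receptor of T and natural killer cells, gave 6.22 and 6.07 in vehicle and 6.08 and 8.80 in sunitinib, and Cd6, a receptor related to Cd5, gave 5.21 and 5.05, then 4.98 and 8.30. Il7r, the interleukin-7 receptor chain on which T cells depend for survival, gave 6.99 and 6.32 in vehicle and 6.55 and 9.07 in sunitinib.

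Of the 3 cytotoxic genes, both granzymes had smaller steps than any B or T cell member. Nkg7, a granule membrane protein of natural killer and cytotoxic T cells, had 5.21 and 5.49 in vehicle and 5.33 and 7.33 in sunitinib. Gzma, the protease granzyme A, had 4.57 and 4.91 in vehicle and 4.44 and 5.19 in sunitinib, a difference of 0.07 ± 0.31. Gzmb, granzyme B, had 3.30 and 3.54, then 3.23 and 3.84. All 3 genes had overlapping groups, with sunitinib replicate 1 below or between the controls and sunitinib replicate 2 highest.

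Over all 33 genes, 0 were higher and 0 lower at a limma adjusted p under 0.05, where the share of all 14916 genes tested was 0% in each direction. At an unadjusted p under 0.05, 4 members were higher (Cd79a, Cr2, Fcer2a and Blk) and 0 lower, with 3.88% of all genes higher. Both sunitinib libraries exceeded both vehicle libraries for 26 of 33 members, 14 of them B cell genes and 12 T cell genes, beside 24% of all genes, and no member had both below. The median difference of the members was 2.104, with a range from 0.07 (Gzma) to 3.19 (Cd79a), and that of all genes 0.01. The count of calls rested on the 2 sunitinib libraries. Without sunitinib replicate 1, 31 of 33 members were higher at a median difference of 3.83, as were 2396 of all 14924 genes tested then. Without sunitinib replicate 2, 5 members were higher at a median of 0.53, as were 255 of all 14858. Those 5 were Blk (1.29, limma adjusted p = 0.0111), Cd22 (1.44, adjusted p = 0.0157), Pou2af1 (1.44, adjusted p = 0.0181), Cd4 (0.95, adjusted p = 0.0259) and Lck (0.79, adjusted p = 0.0409). In both of those fits the spread came from the 2 vehicle libraries, and the lone sunitinib library was assumed to vary as they did.

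The sunitinib libraries of inguinal fat differed from each other in these genes more than any other pair. Sunitinib replicate 2 exceeded replicate 1 by a median of 2.999 over the 33 members and by more than 1 for 31 of them, while 7.53% of all genes differed by more than 1 in either direction. In the vehicle pair the median step from replicate 1 to replicate 2 was 0.18, and 1 member, Fcer2a at 1.38, exceeded 1. In the 6 pairs of the other tissues no tested member differed by more than 1. Of the 33 members, 8 were among the 20 genes with the largest step up in sunitinib replicate 2, 17 among the first 50, 23 among the first 100 and 29 among the first 200. The members were chosen with earlier results of these data known, so these ranks are a description and not a test. With clone and predicted names left out, 7 of the 10 largest such steps belonged to members (Cd8a, Cd3g, Cd8b1, Cd3d, Lat, Lck and Cd4). The other 3 were Tcf7, a T cell transcription factor, at 3.84, Slamf6, a lymphocyte adhesion receptor, at 3.61, and the chemokine Ccl5 at 3.59. In the vehicle pair, 6 of the 10 largest steps up in replicate 2 were B cell members (Fcer2a, Cr2, Cd79a, Ms4a1, Spib and Cd79b), and the other 4 included the immunoglobulin heavy chain locus Igh at 0.99 and the muscle genes Igfn1 and Myh7 at 1.18 and 0.91.

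**Figure D2:**
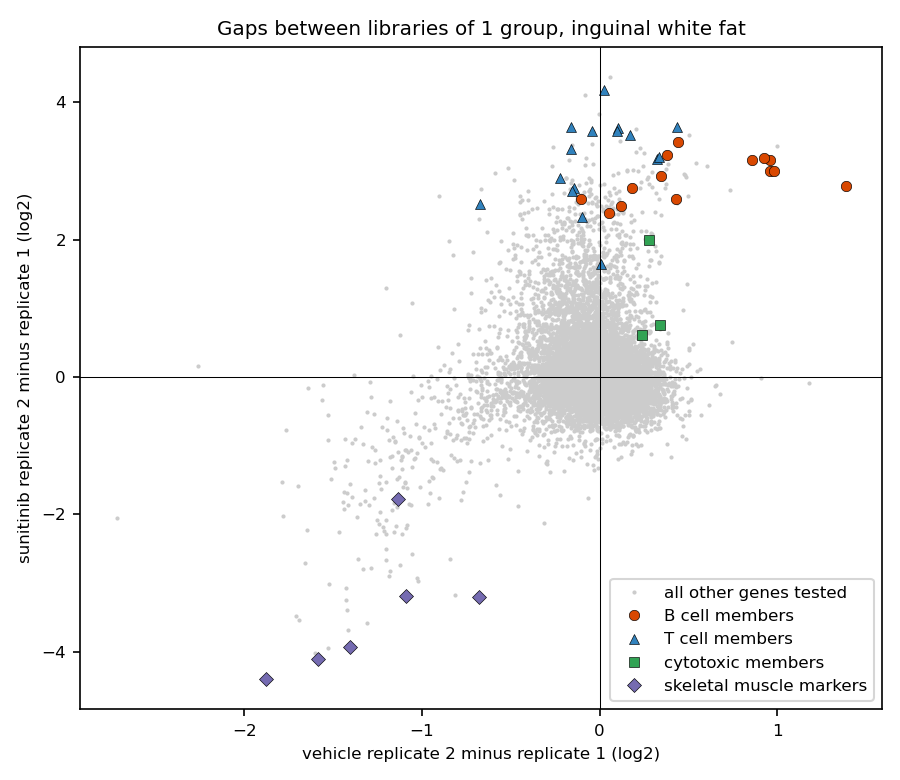
Difference between replicate 2 and replicate 1 (log2) in the inguinal vehicle pair (x axis) and in the sunitinib pair (y axis) for each gene tested, with the B cell, T cell and cytotoxic members and 6 skeletal muscle markers coloured. The B and T cell members lie high on the y axis, with a median sunitinib step of 2.96 and 3.26, B cell members spread to the right on the x axis, and muscle markers lie at the lower left.

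B cell and T cell genes differed in how the 3 lower libraries were arranged. Sunitinib replicate 1 exceeded the vehicle mean by a median of 1.39 for the 14 B cell genes, 0.32 for the 16 T cell genes and −0.19 for the 3 cytotoxic genes. That excess was over 1 for 9 of 14 B cell genes and for 0 of 16 T cell genes. In sunitinib replicate 2 the medians over the vehicle mean were 4.43, 3.68 and 0.45 for B cell, T cell and cytotoxic genes. The excess there was over 2 for all 14 B cell genes, for 14 of 16 T cell genes (not Cd247 and Trat1) and for 0 of 3 cytotoxic genes. The 3 classes were counted and no test was made between them. Because each gene's values are drawn towards its mean, which contains sunitinib replicate 2, the lower 3 libraries lie closer to that library here than their counts would place them.

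The promoters of the members were searched for 3 short motifs as a description of their letters. RefSeq windows of 300 bases, starting 250 bases before the transcription start, were found for 26 of the 33 members (31 windows, GRCm38.p6). The motifs were the octamer ATGCAAAT read by the partner of Pou2af1, the Ets-type motif AGGAAGT and the Runx-type motif TGTGGTT, sought on both strands, and none of them is contained in another. The Ets-type and Runx-type motifs were chosen after values had been seen, and any link between a motif and expression was not tested. The Ets-type motif lay in 3 of 13 B cell windows (Cd79a, Cd37 and Cd72), in 7 of 15 T cell windows (Cd3d, Cd3e, Cd247, Cd5, Il7r and 2 of Lck) and in 0 of 3 cytotoxic windows, with 9.35% of all 32851 windows holding it. The Runx-type motif lay in 2 of 15 T cell windows (Lck and Il7r), in 2 of 3 cytotoxic windows (Gzma and Gzmb) and in 0 of 13 B cell windows, with 5.27% of all windows. The octamer was found in none of the 31 windows and in 1.74% of all windows. Stretches of 87 bases around the Ets-type motif are shown for 4 members, 5′ to 3′ on the strand of the gene, with the motif in capitals, which reads ACTTCCT where it lies on the opposite strand. They are at chr4:43454629-43454715 (minus strand) for Cd72, chr9:44981547-44981633 (plus strand) for Cd3d, chr4:129558440-129558526 (minus strand) for Lck and chr15:9529879-9529965 (minus strand) for Il7r, all before the transcription start and outside annotated exons.
Cd72: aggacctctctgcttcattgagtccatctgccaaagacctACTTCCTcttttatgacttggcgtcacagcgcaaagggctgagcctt
Cd3d: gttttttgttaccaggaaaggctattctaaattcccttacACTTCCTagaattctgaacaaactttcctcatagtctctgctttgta
Lck: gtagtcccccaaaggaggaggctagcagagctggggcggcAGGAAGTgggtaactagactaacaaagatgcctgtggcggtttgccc
Il7r: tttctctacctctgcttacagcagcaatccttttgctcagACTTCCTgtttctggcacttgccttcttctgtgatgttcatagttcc
The motif begins 49 bases before the start in Cd72 and in Il7r, 114 bases in Lck and 199 bases in Cd3d. A match describes letters in a window and does not show that a factor binds there.

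Most genes outside the 33 that mark the same cells were also highest in sunitinib replicate 2, while the full order of vehicle 1, vehicle 2, sunitinib 1 and sunitinib 2 was seen in 9 of 16 other B cell genes, 8 of 21 other T cell genes and 3 of 14 other natural killer and cytotoxic genes. Of 16 other B cell genes, 15 were highest in sunitinib replicate 2, with a median of 0.60 over the vehicle mean in sunitinib replicate 1 and 2.93 in replicate 2. Ikzf3, a zinc finger transcription factor of lymphocytes, read 5.44 and 5.92 in vehicle and 6.88 and 9.79 in sunitinib. All of 21 other T cell genes were highest in sunitinib replicate 2, with medians of 0.19 and 2.72. Bcl11b, a transcription factor of T cell commitment, read 4.04 and 4.06 in vehicle and 4.59 and 7.39 in sunitinib. The 14 other natural killer and cytotoxic genes had medians of 0.00 and 0.71. Of 6 plasma cell genes analysed, 3 were highest in sunitinib replicate 2, and Irf4, a factor of activated B and plasma cells that fat cells also express, had 7.68 and 7.42 in vehicle and 9.77 and 9.04 in sunitinib (1.85 ± 0.29, limma adjusted p = 0.313). None of these genes passed the test in inguinal fat. The share of all genes highest in sunitinib replicate 2, or in that order or its reverse, was not counted, here or for the lists below.

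Genes of lymph node stroma and high endothelial vessels moved with the members. All 7 that were analysed were highest in sunitinib replicate 2, and their mean level was 4.51 and 4.54 in vehicle, 5.29 in sunitinib replicate 1 and 7.37 in sunitinib replicate 2. Glycam1, a mucin-like glycoprotein of high endothelial venules, read 4.44 and 4.41 in vehicle and 7.10 and 8.88 in sunitinib. The lymphoid chemokines Ccl19 (5.26, 5.54, 5.80 and 8.71 in vehicle 1, vehicle 2, sunitinib 1 and sunitinib 2) and Cxcl13 (6.52, 6.07, 7.15 and 9.53) were highest in the last library too. Madcam1, a vascular addressin, read 3.23, 3.28, 3.43 and 4.45, and Chst4, a sulfotransferase of high endothelial cells, 2.84, 2.83, 3.08 and 3.84. The lymphotoxins, made by lymphocytes themselves, read 3.70, 3.74, 3.70 and 6.18 for Lta and 5.58, 5.94, 6.79 and 9.97 for Ltb. None of the 7 passed the test (lowest limma adjusted p 0.313), and their part in the members' values was not tested.

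Other cell types moved in their own ways. The 6 pan-leukocyte genes, among them Ptprc, which encodes CD45, at 9.31 and 9.15 in vehicle and 9.13 and 11.96 in sunitinib, exceeded the vehicle mean by a median of 2.34 in sunitinib replicate 2 and lay 0.08 below it in replicate 1. The 9 macrophage markers were at −0.61 in sunitinib replicate 1 and −0.43 in replicate 2, and the 6 lymphatic endothelial markers at −0.14 and 0.58. The 6 listed skeletal muscle markers, unlike Igfn1 and Myh7 in the vehicle pair, ran opposite to the B cell genes, with a mean level of 14.5 and 13.2 in vehicle and 12.6 and 9.14 in sunitinib. In 5 of those 6 the libraries stood in exactly the reverse order, and Ckm, the muscle creatine kinase, read 14.11 and 12.52 in vehicle and 12.30 and 8.18 in sunitinib. The 8 adipocyte markers were at 0.17 and −0.33 over the vehicle mean in sunitinib replicates 1 and 2. No gene of these lists passed the test, and the part of any of these cell types in the members' values was not tested.

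**Figure D3:**
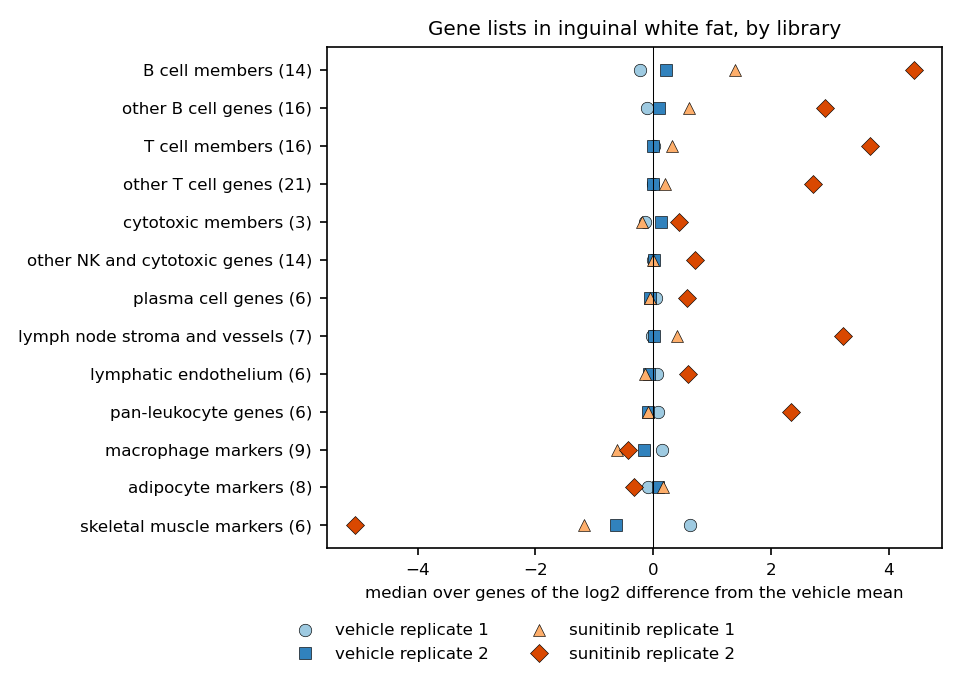
Median over the genes of each list (rows, number of genes in brackets) of the log2 difference from the gene's vehicle mean (x axis) in each of the 4 inguinal white fat libraries. Sunitinib replicate 2 lies at 4.43 for the B cell members, 3.68 for the T cell members and 3.23 for lymph node stroma and vessels, and at −5.07 for skeletal muscle markers.

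In epididymal fat the question was whether sunitinib altered the same genes in a pad where replicate 2 differed from replicate 1 by −0.15 to 0.15 in each tested member and group. Il7r read 8.23 and 8.26 in vehicle and 7.19 and 7.31 in sunitinib, and fell by 0.99 ± 0.07 (SE, n = 2 and 2, limma adjusted p = 0.0175). Cd37 read 8.37 and 8.35 in vehicle and 7.79 and 7.81 in sunitinib, and fell by 0.56 ± 0.06 (limma adjusted p = 0.0297). The groups stood clear of each other for both genes. Thus 2 of 26 tested members were lower, beside 2.06% of all genes tested, and 0 were higher, beside 0.277%. Counted by groups that do not overlap, 8 members were higher and 9 lower, beside 27% and 26.8% of all genes. At an unadjusted p under 0.05, 2 members (Cd79a and Pou2af1) were higher and 5 (Il7r, Cd37, Cd22, Cd72 and Cd247) lower, beside 8.14% and 11.9% of all genes. The median difference of the members was 0.02 and that of all genes 0.01.

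The other members of epididymal fat differed little between treatments. The receptor chains Cd79a (5.18 and 5.26 in vehicle, 5.41 and 5.39 in sunitinib) and Cd3e (4.02 and 4.01, then 4.05 and 4.08) had differences of 0.18 ± 0.06 and 0.05 ± 0.03. Pou2af1 differed by 0.22 (limma adjusted p = 0.0958), Cd22 by −0.26 (adjusted p = 0.0965) and Cd72 by −0.31 (adjusted p = 0.109), none of which passed. Cd4 lay between 4.75 and 4.83 in the 4 libraries and Lck between 5.06 and 5.17. Both calls were lost without vehicle replicate 1 (limma adjusted p = 0.216 for Il7r and 0.239 for Cd37) and without vehicle replicate 2 (adjusted p = 0.257 and 0.281), where the differences were −1.01 and −0.98 for Il7r and −0.55 and −0.57 for Cd37. In 1 fit over the 4 tissues, whose spread includes the inguinal libraries, neither passed (limma adjusted p = 0.491 for Il7r and 0.786 for Cd37).

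Il7r and Cd37 fell beside genes of other leukocytes. Of 6 pan-leukocyte genes 5 fell, among them Laptm5 by 1.02 and Ptprc by 0.87, while Cd52 read 9.91 and 9.83 in vehicle and 11.79 and 9.02 in sunitinib. Of 9 macrophage markers 5 passed as lower, among them Mpeg1, a pore-forming protein, by 1.64 and the lysosomal protein Cd68 by 1.32. All 9 lay lower in both sunitinib libraries than in both controls, beside 26.8% of all genes, at a median difference of −0.79. Of 13 other B cell genes tested, Blnk, Btk and Cd180, which myeloid cells also express, passed as lower, by 0.74, 0.51 and 0.93. None of 16 other T cell genes and none of 8 other natural killer and cytotoxic genes tested passed. Of 7 lymph node genes analysed, 4 were tested and 0 passed, with values of the 7 reaching up to 6.36. Glycam1, which was not tested, lay at the bottom of the range, between −0.99 and −0.98, in all 4 epididymal libraries. Of 6 epithelial markers, Cldn7, a tight junction protein, rose by 0.99. The other 5 lay higher in both sunitinib libraries than in both controls without passing, beside 27% of all genes. The controls differed in these markers too, with all 6 higher in vehicle replicate 2 than in vehicle replicate 1, by a median of 0.87. Of 8 adipocyte markers only Lep, the hormone leptin, passed, and fell by 1.01. The median difference of the 8 was 0.05, with a range from −1.01 to 1.26. Of 6 skeletal muscle markers only Acta1, an alpha actin, passed, and rose by 0.59. The median difference of the 6 was −0.14, with a range from −0.71 to 0.59. The part of macrophages, other leukocytes, epithelium or muscle in the values of Il7r and Cd37 was not tested.

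Sunitinib replicate 1 of epididymal fat stood apart in genes of the epididymal duct and smooth muscle, such as Akr1b7 (15.30 against 6.59 in replicate 2), Crisp1 (12.66 against 5.98) and Myh11 (13.61 against 9.93). Without that library Il7r fell by 0.93 (limma adjusted p = 0.0212) and Cd37 by 0.55 (adjusted p = 0.032). Without replicate 2 in its place they fell by 1.05 (adjusted p = 0.00448) and 0.57 (adjusted p = 0.0207). Both calls were thus made with either sunitinib library alone, whose spread is then taken from the vehicle pair.

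**Figure D4:**
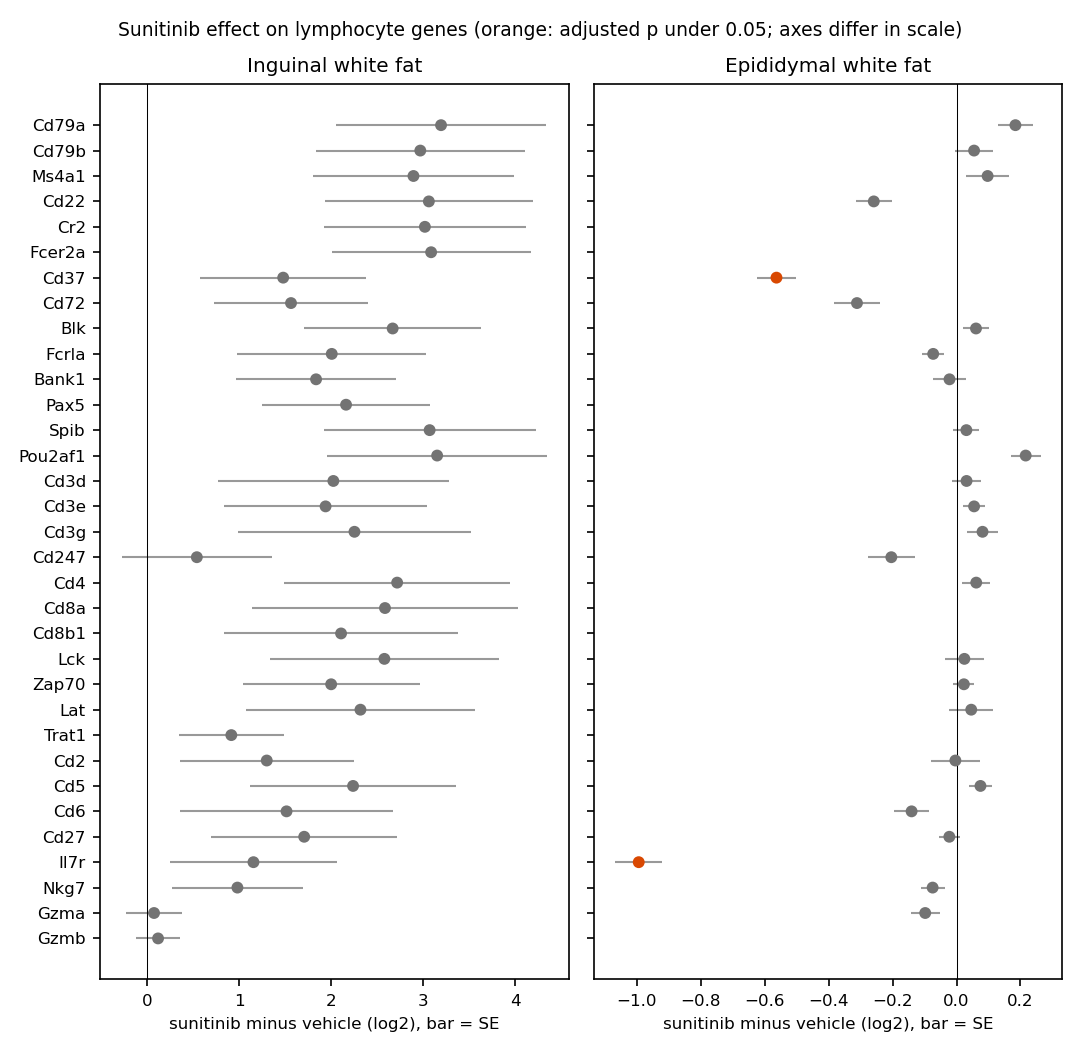
Sunitinib minus vehicle difference (log2, x axis; bars are limma standard errors, n = 2 and 2 libraries) of each lymphocyte gene in inguinal (left) and epididymal (right) white fat, with orange for an adjusted p under 0.05. The scales of the panels differ, all 33 inguinal differences are above 0 with wide bars and no call, and Il7r and Cd37 are the orange points in epididymal fat.

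In brown fat 3 members were abundant enough to test, and 0 were higher or lower, beside 0% of all 13044 genes in each direction. The vehicle libraries stood apart in muscle genes. The mean level of 6 skeletal muscle markers was 8.21 and 12.10 in vehicle replicates 1 and 2 and 10.24 and 9.54 in sunitinib. The part of muscle in these values was not tested. At an unadjusted p under 0.05, 1 member was lower, beside 6.98% of all genes, and 0 were higher. That member was Cd37, at 3.76 and 3.83 in vehicle and 3.70 and 3.68 in sunitinib, a difference of −0.11 ± 0.04 (limma adjusted p = 0.307), with both sunitinib libraries below both controls as in 24% of all genes. Cd79a lay between 3.61 and 3.65 and Cd72 between 4.71 and 4.85. The other 29 members analysed had means under 3. Of the 32 analysed, 16 shared all 4 values with some other gene, beside 24.3% of all 19664 genes. Genes with the fewest reads do so on this scale. Cd8a and Cd8b1 were such genes, at 0.44, 0.43, 0.43 and 0.48 each.

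In liver 8 members were tested and 0 were higher or lower, beside 0.121% and 0.0726% of all 12394 genes. At an unadjusted p under 0.05, 3 members were lower, Zap70, Cd22 and Cd72, beside 5.17% of all genes, and 0 were higher, beside 3.47%. Zap70 read 8.02 and 7.98 in vehicle and 7.72 and 7.82 in sunitinib replicates 3 and 4, a difference of −0.22 ± 0.08 (limma adjusted p = 0.418). Relative to the median gene of each library, the vehicle level of Zap70 was 1.93 in liver and −3.12 in inguinal fat, whereas that of Cd3e, its partner in T cells, was −4.92 in liver and −3.16 in inguinal fat. In RefSeq Zap70 overlaps the pseudogene Gm18828, which was not analysed here. Cd22 differed by −0.07, Cd72 by −0.12 and Cd4 by −0.05, and these with Zap70 made 4 members with both sunitinib libraries below both controls, beside 19.2% of all genes, while 0 had both above, beside 18.3%. Of 5 lymph node genes analysed in liver, with values from −0.95 to 4.01, 2 were tested and 0 passed. Among the 5, Cxcl13 and Madcam1 lay between 1.68 and 1.76 and between −0.95 and −0.94.

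The sunitinib effect in inguinal fat was then compared with that in each other tissue by the difference of the effects. Of 26 members tested in both white pads, 0 differed, beside 0% of 14352 genes. The inguinal effect was the more positive for all 26, at a median difference of 2.11 beside 0.0075 over all genes. All 26 share the inguinal sunitinib replicate 2 library, so they are not separate observations of a tissue difference. The share of all genes with a more positive inguinal effect was not counted. Cd22 had the lowest unadjusted p, with a difference of effects of 3.32 ± 1.31 (limma adjusted p = 0.496), and was the 1 member with an unadjusted p under 0.05, beside 4.38% of all genes in the positive direction. Against brown fat 0 of 3 differed, beside 0.0314% of 12725 genes, and against liver 0 of 8, beside 0.043% of 11626 genes. At an unadjusted p under 0.05 these were 1 (Cd79a) and 2 (Cd79a and Cd22), beside 5% and 5.2% of all genes in the positive direction. Without inguinal sunitinib replicate 1, 25 of 26, 3 of 3 and 8 of 8 members differed from epididymal fat, brown fat and liver, beside 21.3%, 19% and 26.2% of all genes. Without inguinal sunitinib replicate 2 these counts were 1, 0 and 7, beside 0.118%, 3.22% and 7.36% of all genes.

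Levels between tissues are set side by side as a description, since each table was normalized separately. Over the 32 members found in all 4 tables, the median level in vehicle libraries, relative to the median of the 16889 genes shared by the tables, was −4.91 and −4.93 in brown fat and −4.29 and −4.24 in liver. It was −3.01 and −3.08 in epididymal fat and −2.67 and −2.35 in inguinal fat. The sunitinib libraries stood at −4.94 and −4.89 in brown fat, −3.16 and −3.13 in epididymal fat and −4.27 and −4.30 in liver, next to their controls. In inguinal fat they stood at −1.47 and 1.21.

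Members did not all follow this order of tissues. On the same relative scale, the vehicle mean of Cd79a was −1.29 in inguinal fat, −2.31 in epididymal fat, −2.70 in brown fat and −2.93 in liver. Fcer2a had a wider gap, with −1.82 in inguinal fat and −5.25, −4.78 and −4.94 in epididymal fat, brown fat and liver. In these last tissues its mean was under 3, and in brown fat and liver it shared all its values with some other gene. The order of Fcer2a among them is therefore not read. Cd37 and Il7r were highest in epididymal fat, at 0.83 and 0.72, with 0.52 and −0.84 in inguinal fat. Zap70 was highest in liver, as given above, against −3.58 in epididymal fat. The inguinal vehicle values are drawn up towards gene means that include sunitinib replicate 2, and by how much was not tested.

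**Figure D5:**
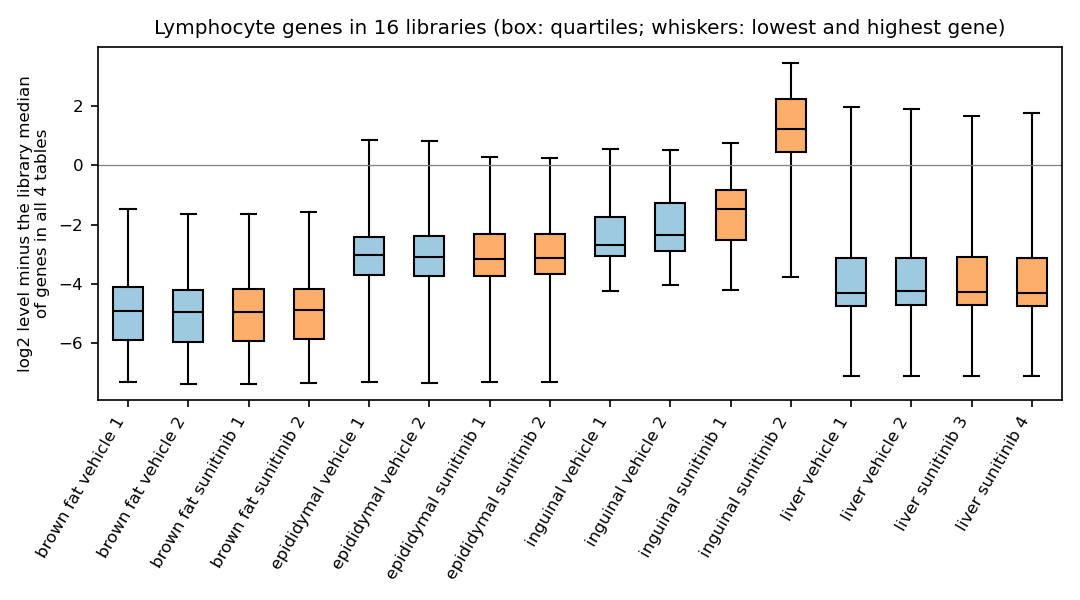
Level of the 32 lymphocyte genes found in all 4 tables, as log2 level minus the median of the 16889 shared genes in that library (y axis), in the 16 libraries (x axis; blue for vehicle, orange for sunitinib); boxes span the quartiles with the median as a line, and whiskers reach the lowest and highest gene. The medians lie at −1.47 or lower in 15 libraries and at 1.21 in inguinal sunitinib replicate 2.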

How the data were processed

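Libraries of brown fat, epididymal and inguinal white fat and liver were grouped by treatment from their titles, 2 per group. The values are regularized log2 expression per gene, deposited by the authors as 1 table per tissue and named so in the tables' titles. The tools listed, per the submitters' processing notes, are TopHat2 2.1.1, bcl2fastq 2.17.1.14, DESeq2 and bedtools, with mm9 as the build. What each tool did, the gene annotation, the way of counting and any use of strand: not given in the sources used here. The values are not counts, so sunitinib was compared with vehicle by limma 3.58.1 in R 4.3.3 (lmFit, eBayes with an intensity trend, 2 residual degrees of freedom) within each tissue, on genes with a mean of at least 3, with Benjamini-Hochberg adjustment over all genes tested. Differences between tissues were tested as differences of these effects. Shrinkage understates the change of genes with few reads and affects their SEs. The pipeline was tested on simulated data.

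The members and gene lists were chosen with earlier results of these data known. Named genes were all members, the lymph node genes, those of each other list that passed or were among the 4 with the smallest p, and the 10 largest steps between the libraries of a group; of these, the ones that bear on the members are printed. Symbols singled out beyond that (Ucp1, Alb, Adipoq, Cd52, Cxcl13 and Madcam1 in liver, Gm18828, the epididymal genes picked from the largest steps, and the genes overlapping a member) were chosen after their values were seen, as were the Ets-type and Runx-type motifs. The RefSeq reference was another build (GRCm38) than the files, so it served for promoters and overlaps of genes and no coordinate of the files was used. In RefSeq, 4 members overlapped another protein-coding gene (Fcer2a, Cd72, Cd247 and Gzma). Alternatives were no filter, a mean of at least 5, quantile normalization, median centring, no trend, robust shrinkage, 1 fit over the 4 tissues, a replicate block and leaving out each library.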

Additional observations from a re-analysis of the deposited data

How the results depend on the processing

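With 2 libraries per group, leaving out 1 library changed 5 of 11 counts of calls, while those of brown fat and liver stayed at 0. The count of members higher in inguinal fat ranged from 0 to 31 and their median from 0.53 to 3.83. In inguinal fat, 1 fit over the 4 tissues called 12 of the 23 members it could hold, beside 1349 of 13599 genes. The spread of that fit is shared with tissues whose pairs differed less. The median absolute gap of tested members was 2.999 in the inguinal sunitinib pair and 0.02 to 0.07 in the pairs of the other tissues. That fit thus understates the inguinal spread, and its 12 calls are not read as a sunitinib effect. Members lower in epididymal fat numbered 0 to 2 with a library left out, 0 in 1 fit over the 4 tissues and 4 with median centring, which adds Cd22 and Cd72 and shifts the median of all genes to −0.08. Differences of inguinal from epididymal, brown fat and liver effects ranged over 0 to 25, 0 to 3 and 0 to 8 members. Small medians moved with the setting. In brown fat (−0.06) the median was −0.012 with no filter, −0.0367 with quantile normalization, −0.0218 with median centring and −0.0757 to −0.0224 with a library left out, and a mean of at least 5 left no member. In epididymal fat (0.02) it was −0.14 with a mean of at least 5, −0.0355 with quantile normalization, −0.0621 with median centring and −0.017 to 0.0362 with a library left out. In liver (−0.03) it was −0.00594 with no filter, −0.22 with a mean of at least 5 and −0.0476 to −0.0216 with a library left out. Gaps between libraries of a pair were −0.0298 with quantile normalization and −0.0536 with median centring in brown fat vehicle, 0.0597 with quantile normalization and −0.00105 with no filter in brown fat sunitinib, −0.0422 with median centring in epididymal vehicle, and 0.0212 and 0.00132 with no filter in liver vehicle and sunitinib. Vehicle levels of 1.42, 4.48, 4.96 and 1.81 as deposited in brown, epididymal and inguinal fat and liver become −4.92, −3.05, −2.53 and −4.26 relative to the genes shared by all tables. The cause of these shifts was not tested.

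Across all genes tested, the step from replicate 1 to replicate 2 in vehicle was correlated with that in sunitinib. The r was −0.256 in brown, 0.224 in epididymal and 0.108 in inguinal fat. In brown fat same-numbered libraries thus tended to deviate in opposite directions. Each r rests on 2 pairs of libraries, and same-numbered libraries were not taken as pairs. With the replicate number as a block, 0 members were called in inguinal and brown fat, 2 in epididymal fat, and the crossed pairing added after seeing the data called 0 in brown fat. In liver the titles number the sunitinib libraries 3 and 4 and the descriptions 1 and 2. By the descriptions' numbers r was 0.435, and a replicate block added after seeing the data called 1 member lower, Zap70 (−0.22, limma adjusted p = 0.0387), beside 470 of 12394 genes. Without read totals, depth and its limits cannot be stated, and 2 libraries per group limit every test.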
